A study of Mus musculus with 2 samples.

Results

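The cells described here are stimulated mouse CD8+ T cells with little RNA: droplet barcodes assigned by hashtag to 1 of 5 stimulated cultures that held 1000 to 2500 unique molecular identifiers (UMIs, counts of distinct RNA molecules). They were set beside the high-RNA cells of the same cultures, at 6000 to 9000 UMIs, and beside rested cells. A cell was kept if its top hashtag had at least 20 counts and 80% of its hashtag counts, if at least 500 genes were detected, and if at most 10% of its UMIs were mitochondrial. These rules left 383 low-RNA cells, 3919 high-RNA cells and 755 rested cells, out of 10600 cells used and 13439 barcodes in the matrix. Because total UMIs chose both groups of stimulated cells, their differences are described without a test.

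CD8+ T cells from the spleens of WT mice were stimulated for 30 h with 0.2, 2 or 20 pmol of the peptide named M9C or 20 or 80 pmol of the peptide named L6F, or were rested. In the deposited text each peptide name puts the residue that the peptide holds before the position, the reverse of the usual order for substitutions. Each peptide was presented on biotinylated monomeric H-2Db coated onto streptavidin plates. All cultures were marked with hashtag antibodies, sorted together as live cells with propidium iodide and run in 1 lane of a 10x Genomics droplet platform. Each condition was 1 culture, so the 5 stimulated cultures differ in stimulus and serve only to show how far a difference recurs. How many mice were used and which T cell receptor the cells carried is not given in the labels.

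A naive CD8+ T cell is small and quiescent, and it expresses genes for lymph node homing, survival and quiescence, such as Ccr7, Il7r and Klf2. Engagement of its receptor by a peptide on an MHC molecule switches on activation receptors, cytokines and chemokines, then ribosome production, glycolysis and lipid synthesis, and the cell grows and divides. A stimulated culture can hold cells that have not responded. The question is therefore whether the cells with little RNA kept naive transcripts or held the transcripts of activated cells.

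Low-RNA cells were a small share of every culture. There were 40 of 1589 cells (2.52%) at 0.2 pmol M9C, 54 of 1703 (3.17%) at 2 pmol M9C, 60 of 1869 (3.21%) at 20 pmol M9C, 110 of 2477 (4.44%) at 20 pmol L6F and 119 of 2207 (5.39%) at 80 pmol L6F. The exact binomial 95% intervals, which cover counting error only as do all intervals here, ran from 1.80 to 3.41% at 0.2 pmol M9C and from 4.49 to 6.42% at 80 pmol L6F. Among stimulated cells that passed the filters, the window had no natural edges. In the 100 UMIs on either side of its lower limit lay 15 cells inside and 16 outside. On either side of its upper limit lay 52 inside and 56 outside. Of 254 stimulated barcodes assigned by hashtag with fewer than 1000 UMIs, only 32 passed the filters. For the high-RNA window, 115 cells lay as near inside the lower limit and 134 outside it, and 107 inside the upper limit and 101 outside it.

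Median UMIs per cell were 2014 to 2178 in the low-RNA cells of the 5 cultures, 7276 to 7520 in the high-RNA cells and 1056 in rested cells. Low-RNA cells thus held about 0.271 to 0.290 times the UMIs of high-RNA cells, and 0.413 to 0.470 times their hashtag counts. Median mitochondrial shares were 1.90 to 2.28% in low-RNA cells, 1.54 to 1.76% in high-RNA cells and 2.37% in rested cells. The top hashtag took a median of 95.3 to 97.9% of hashtag counts in low-RNA cells, 96.8 to 98.6% in high-RNA cells and 89.8% in rested cells. In all, low-RNA cells gave 757588 UMIs, high-RNA cells 29119669 and rested cells 918920, so that a count of 0 allowed 12.6 to 36.8 CPM (the usual counts-per-million unit, UMIs scaled to the same total in every group) in the low-RNA cells of 1 culture, 0.418 to 0.626 CPM in high-RNA cells and 3.26 CPM in rested cells. The filters left out 828 of 1583 tagged rested barcodes, so the rested cells used are the deeper part of that culture.

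**Figure D1:**
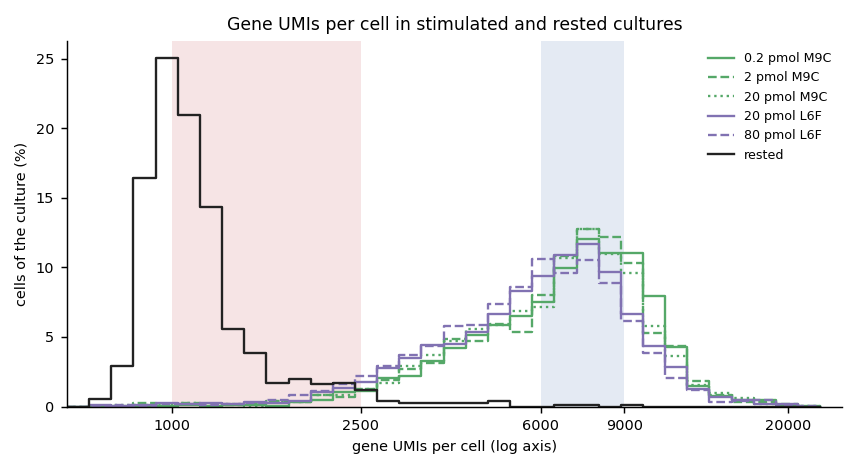
Gene UMIs per cell (log axis) against the percent of each culture's cells; green lines are M9C cultures, purple lines L6F cultures and the black line rested cells. The red band marks the low-RNA window, which lies in the left tail of the stimulated cultures and overlaps the rested cells, and the blue band marks the high-RNA window.

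The 3 groups of cells carried the transcripts of CD8 T cells. The summed level of the 6 markers (Cd3e, Cd3d, Cd3g, Trac, Cd8a and Cd8b1) was 2143 to 2385 CPM in low-RNA cells, 2015 to 2158 CPM in high-RNA cells and 3844 CPM in rested cells. Cd4 was at 0 in low-RNA cells, as were the B cell gene Pax5 and every neutrophil, basophil or mast cell and platelet marker. Summed B cell markers reached 172 to 790 CPM in low-RNA cells, 214 to 259 CPM in high-RNA cells and 264 CPM in rested cells. Summed NK cell markers were 8.61 to 147 CPM, 18.4 to 45.7 CPM and 72.9 CPM, and summed macrophage or monocyte markers 0 to 356 CPM, 1.53 to 24.2 CPM and 150.2 CPM, in the same order. Summed gamma-delta T cell markers were 17.2 to 326 CPM in low-RNA cells, 59.2 to 105 CPM in high-RNA cells and 459 CPM in rested cells. In 1 low-RNA cell of the 2 pmol M9C culture the antibody light chain gene Igkc had 720 of its 723 low-RNA UMIs, and Jchain, the antibody joining chain gene, all 30. Likewise all 82 UMIs of Lyz2, a macrophage lysozyme gene, came from 1 low-RNA cell of the 80 pmol L6F culture.

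Across all genes, more differed by 2-fold between low-RNA and rested cells than between low-RNA and high-RNA cells. Of 5701 genes at 20 CPM or more in low-RNA or high-RNA cells (CPM averaged over the 5 cultures), 91 (1.60%) were at least 2-fold higher in low-RNA cells in the same direction in 5 of 5 cultures, and 11 (0.193%) were at least 2-fold lower. A gene without any low-RNA UMI entered these ratios as 3 counts of the total of all low-RNA cells. The floors of single cultures given above did not enter the calls. Few low-RNA UMIs per gene leave the counts of lower genes uncertain. Against rested cells, 990 of 6174 genes (16.0%) were called at least 2-fold higher in low-RNA cells, and 507 (8.21%) at least 2-fold lower. This rule also required that the 95% counting interval of the ratio of counts summed over the cultures excluded equality. The same rule of size and counting interval gave 174 genes (3.05%) higher and 14 (0.246%) lower in low-RNA than in high-RNA cells. High-RNA cells had 983 of 5919 genes higher (16.6%) and 830 lower (14.0%) than rested cells; these 2 comparisons share the rested cells. The median log2 CPM ratio of all measured genes was 0.08 for low-RNA against high-RNA cells and 0.25 for low-RNA against rested cells, and with the median gene set to a ratio of 1 the comparison with rested cells gave 619 genes higher and 793 lower. Narrowing the low-RNA window to 1000 to 2000 UMIs, which left 160 cells, gave 139 genes higher and 133 lower than in high-RNA cells.

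**Figure D2:**
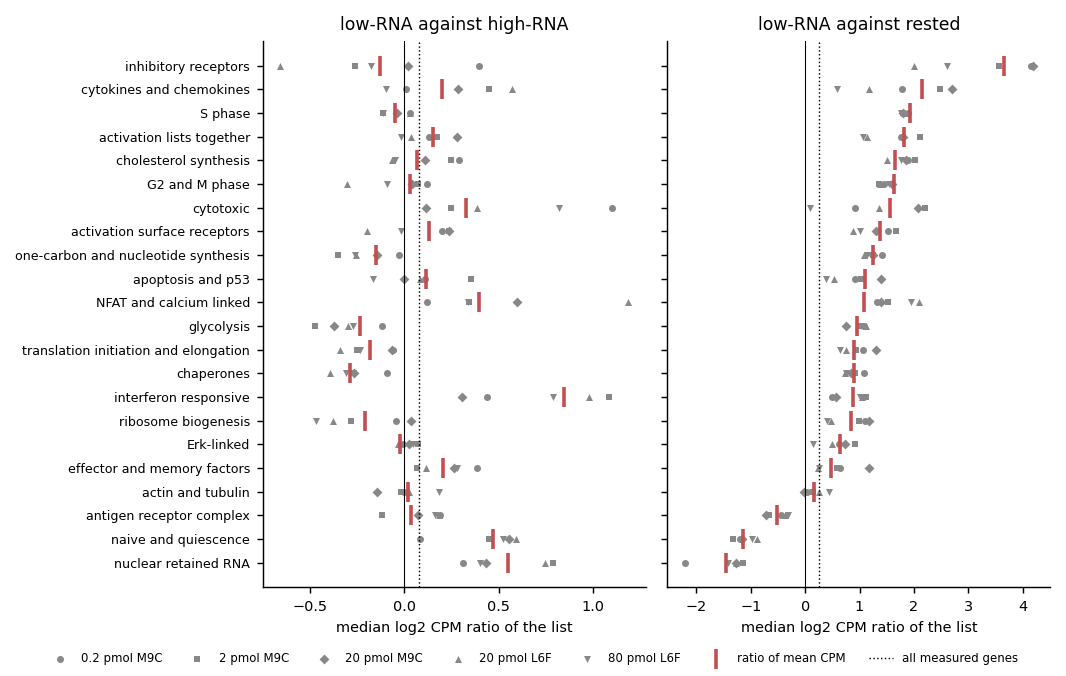
Median log2 CPM ratio of each gene list, for low-RNA against high-RNA cells (left) and low-RNA against rested cells (right). Grey symbols are the 5 cultures, red bars the ratio of means over the cultures and the dotted line the median of all measured genes (0.08 and 0.25). On the left, the red bars of all lists but the interferon and nuclear retained ones lie within 0.5 of 0. Single cultures lie further out, such as 20 pmol L6F at 1.18 for NFAT and calcium and -0.66 for inhibitory receptors. On the right, the red bar of the S phase list is at 1.93 and that of the naive list at -1.14.

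Naive and quiescence genes were far lower in low-RNA cells than in rested cells, and slightly higher than in high-RNA cells. Of 27 measured members, 15 were at least 2-fold lower in low-RNA than in rested cells and 0 higher, with a median log2 ratio of -1.14. In high-RNA cells, 20 of 27 were below the rested level by this rule and 0 above it (median -1.43). Over all measured genes, 8.21% were lower than in rested cells for low-RNA cells and 14.0% for high-RNA cells. Between low-RNA and high-RNA cells, 23 of the 28 members were measured, 2 were called higher (Klf2 and Pdcd4) and 0 lower, and the median was 0.47 ± 0.20 (SD of the 5 cultures' medians, which ran from 0.09 at 0.2 pmol M9C to 0.59 at 20 pmol L6F). The members not measured there, S1pr1, Tsc22d3, Cd55, Klf3 and Tob1, were below 20 CPM in both groups of stimulated cells. Summed over the list, naive transcripts made up 2787 ± 580 CPM in low-RNA cells, 2165 ± 173 CPM in high-RNA cells (SD, n = 5 cultures) and 6488 CPM in rested cells.

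Klf2, a transcription factor that maintains quiescence and drives expression of exit receptors (chromosome 8, 72319033 to 72321656, plus strand, GRCm38), had 36.8, 18.8, 43.1, 83.8 and 79.6 CPM in low-RNA cells at 0.2, 2 and 20 pmol M9C and 20 and 80 pmol L6F. In high-RNA cells of the same cultures it had 11.9, 13.8, 15.2, 24.3 and 34.0 CPM, and in rested cells 562.6 CPM. Low-RNA cells were thus 2.65-fold above high-RNA cells and 10.7-fold below rested cells, and the low-RNA value was above the high-RNA value within each culture. In low-RNA cells at 0.2, 2 and 20 pmol M9C, 3 counts amounted to 36.8, 28.2 and 25.8 CPM. The Klf2 values at 0.2 and 2 pmol M9C thus rest on at most 3 UMIs each. S1pr1, the receptor for lymph node exit (chromosome 3, 115710433 to 115715072, minus strand), had 4 UMIs in all low-RNA cells, or 4.42 CPM, against 2.08 CPM in high-RNA cells and 109.9 CPM in rested cells. Bcl2, the survival gene, had 110.4, 159.8, 120.6, 181.5 and 196.9 CPM in low-RNA cells in that order of cultures, 79.7, 82.2, 76.9, 130.4 and 136 CPM in high-RNA cells and 976 CPM in rested cells. The lowest low-RNA value of Bcl2 lay below the highest high-RNA values, so the groups overlapped across cultures although low-RNA cells were higher within 5 of 5.

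Receptors for homing and survival were below the rested level. Ccr7, the lymph node chemokine receptor gene, averaged 82.4 ± 44.9 CPM in low-RNA cells, 75.8 ± 16.6 CPM in high-RNA cells and 236 CPM in rested cells. Il7r, the receptor for the survival cytokine IL-7, was at 24.5, 0 and 8.61 CPM in low-RNA cells of the M9C cultures and 69.8 and 125.7 CPM in those of the L6F cultures, against 5.71 to 10.2 CPM and 23.0 and 23.8 CPM in high-RNA cells and 185 CPM in rested cells. For Il7r the low-RNA cells of the L6F cultures stood above every other stimulated group. The transcription factor genes of naive and memory-precursor cells lay nearer to the rested level: Tcf7 averaged 164 ± 62.5 CPM in low-RNA cells, 129 ± 30.3 CPM in high-RNA cells and 251 CPM in rested cells, and Lef1 87.1 ± 24.2, 56.2 ± 3.59 and 191.5 CPM. Pdcd4, a translation inhibitor gene, was called higher in low-RNA cells (96.1 ± 20.03 CPM) than in high-RNA cells (47.0 ± 20.4 CPM), with 174 CPM in rested cells. Slfn2, a quiescence gene, was close in all groups, at 515 ± 68.2, 450.4 ± 77.5 and 560.4 CPM.

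**Figure D3:**
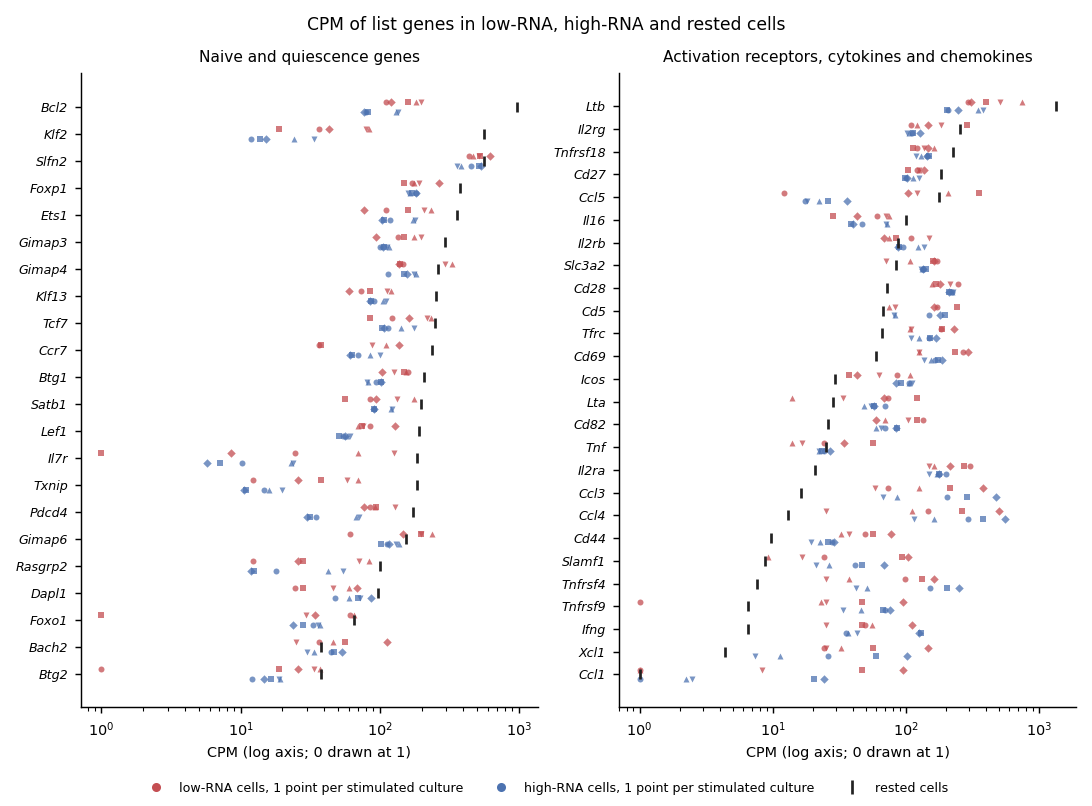
CPM (log axis) of named naive and quiescence genes (left) and of activation receptor, cytokine and chemokine genes (right); red points are low-RNA cells and blue points high-RNA cells, 1 point per culture, and black bars are rested cells; 0 is drawn at 1. For most naive genes both sets of points lie left of the rested bar, as for Klf2 with 52.4 and 19.8 CPM against 562.6, and for receptors such as Il2ra both lie right of it.

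Genes of activation were at nearly the level of high-RNA cells. Over the activation receptor, inhibitory receptor, cytokine and chemokine, and NFAT and calcium lists together, 37 of 56 members were measured. Against rested cells, low-RNA cells had 25 higher and 3 lower (median log2 ratio 1.81), beside 16.0% and 8.21% of all measured genes. High-RNA cells had 23 higher and 5 lower of 35 measured (median 1.48), beside 16.6% and 14.0% of all measured genes. The members measured differ between these 2 comparisons, so the medians do not rank the groups. Between low-RNA and high-RNA cells the median was 0.15 ± 0.11 (SD, n = 5 cultures), with 2 of 37 members called higher (Cd44 and Bhlhe40) and 1 lower (Btla). Counted as UMIs per cell rather than as CPM, so that the smaller total of these cells enters, the list median of low-RNA cells was -1.77 against high-RNA cells and 2.51 against rested cells, while the naive list stood at -1.44 and -0.44.

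Of 16 measured activation surface receptors, 11 were at least 2-fold higher in low-RNA than in rested cells and 0 lower. By the same rule 16.0% of all measured genes were higher and 8.21% lower. Il2ra, which encodes a chain of the high-affinity receptor for interleukin 2 (chromosome 2, 11642807 to 11693193, plus strand), had 307, 273, 215, 163 and 150.8 CPM in low-RNA cells at 0.2, 2 and 20 pmol M9C and 20 and 80 pmol L6F, against 201, 178, 177, 171 and 150.4 CPM in high-RNA cells and 20.7 CPM in rested cells. Each low-RNA value was at least 7 times the rested one, and the low-RNA and high-RNA ranges overlapped. Cd69, an early activation receptor gene that retains cells in tissue, had 269.8, 235, 293, 125.7 and 125.7 CPM in low-RNA cells, 165, 176, 186, 156 and 137 CPM in high-RNA cells and 59.9 CPM in rested cells. Cd69 was thus higher in low-RNA than in high-RNA cells in the 3 M9C cultures and lower in both L6F cultures. Tnfrsf4, the costimulatory receptor OX40, was lower in low-RNA than high-RNA cells in 5 of 5 cultures but by less than 2-fold, at 91.1 ± 59.6 against 141.0 ± 93.1 CPM, with 7.62 CPM in rested cells. Cd44, an adhesion receptor gene of activated and memory T cells, was called higher in low-RNA cells, at 50.6 ± 17.7 CPM against 24.99 ± 3.803 CPM in high-RNA and 9.79 CPM in rested cells.

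All 4 measured inhibitory receptors were at least 2-fold higher in low-RNA than in rested cells, as were 16.0% of all measured genes. Lag3, which binds MHC class II (chromosome 6, 124904361 to 124911705, minus strand), had 134.9, 84.6, 146, 32.6 and 37.7 CPM in low-RNA cells, 79.4, 90.6, 100.4, 68.0 and 68.8 CPM in high-RNA cells and 4.35 CPM in rested cells. The low-RNA cells of the L6F cultures were the lowest of the stimulated groups for Lag3 and still several times above rested cells. Pdcd1, the PD-1 gene, averaged 36.5 ± 31.3 CPM in low-RNA, 43.1 ± 20.7 CPM in high-RNA and 6.53 CPM in rested cells. Btla, an inhibitory receptor gene that was below 20 CPM in both low-RNA and rested cells, was called lower in low-RNA cells, at 16.9 ± 9.97 against 37.8 ± 7.67 CPM.

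Among 10 measured cytokines and chemokines, 6 were higher and 1 lower in low-RNA than in rested cells (all measured genes: 16.0% and 8.21%). Ccl4, a chemokine that attracts other leukocytes (chromosome 11, 83662584 to 83664683, plus strand), had 147, 263, 499, 111.7 and 25.1 CPM in low-RNA cells, 294, 380.4, 557, 164 and 114.8 CPM in high-RNA cells and 13.1 CPM in rested cells. It was below its high-RNA value in each culture, by 0.16 to 2.19 on the log2 scale, and above rested cells in each. Its relative Ccl3 averaged 170.6 ± 132 CPM in low-RNA, 225 ± 168 CPM in high-RNA and 16.3 CPM in rested cells, and Ifng, the interferon gamma gene, 57.8 ± 32.4, 74.4 ± 49.3 and 6.53 CPM. The 40 Ifng UMIs of low-RNA cells came from 14 cells, 11 of them from 1 cell. Ltb, the lymphotoxin beta gene, was the member called lower than in rested cells, at 456 ± 189 CPM in low-RNA, 278 ± 81.2 CPM in high-RNA and 1339 CPM in rested cells. Ccl5, a chemokine gene of effector and memory T cells, ranged from 12.3 to 357 CPM in low-RNA cells, against 17.5 to 36.03 CPM in high-RNA cells and 177 CPM in rested cells, and 3 low-RNA cells held 43.2% of its low-RNA UMIs.

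The signal-linked lists had few measured members, because many immediate-early genes were below 20 CPM in every group. Among NFAT and calcium linked genes 7 were measured, of which low-RNA cells had 4 above (Irf4, Irf8, Ikzf2 and Bhlhe40) and 2 below (Nfatc2 and Tnfsf8) the rested level. Irf8, an interferon regulatory factor, averaged 145 ± 57.2 CPM in low-RNA, 138 ± 18.2 CPM in high-RNA and 11.97 CPM in rested cells, and its relative Irf4 averaged 107.8 ± 45.4, 93.6 ± 20.8 and 10.9 CPM. Of 8 measured Erk-linked genes, 2 were higher (Egr1 and Dusp5) and 1 lower (Jun) than in rested cells, against 16.0% higher and 8.21% lower of all measured genes. The immediate-early gene Egr1 had 24 UMIs in low-RNA cells, 27.0 ± 19.6 CPM against 44.4 ± 6.94 CPM in high-RNA and 7.62 CPM in rested cells, and in the narrower low-RNA window its log2 ratio to rested cells was -0.023. Of 10 measured effector and memory factors, 4 were higher and 0 lower than in rested cells, against 16.0% and 8.21% of all measured genes. Batf3, an AP-1 family factor, had 110.4, 0, 51.7, 18.6 and 33.5 CPM in low-RNA cells, 86.7, 67.1, 45.0, 71.3 and 55.5 CPM in high-RNA cells and 1 UMI (1.09 CPM) in rested cells. List medians between low-RNA and high-RNA cells were 0.40 for NFAT and calcium, -0.02 for Erk and 0.20 for effector factors.

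Genes of DNA replication and mitosis were as high in CPM in low-RNA cells as in high-RNA cells. All 24 S phase genes and 21 of 22 G2 and M phase genes were at least 2-fold higher in low-RNA than in rested cells. By that rule 16.0% of all measured genes were higher. Summed S phase genes reached 5076, 4728, 5107, 5311 and 5161 CPM in low-RNA cells, in the order of cultures used above, 5246, 5198, 5271, 5413 and 5429 CPM in high-RNA cells and 1480.0 CPM in rested cells. Every low-RNA sum was more than 3 times the rested sum, and every one was below the high-RNA sum of its culture, by less than 500 CPM. The median log2 ratio of the S phase list between low-RNA and high-RNA cells was -0.05 ± 0.07 and that of the G2 and M phase list 0.03 ± 0.17 (SD, n = 5 cultures). Mcm3, a subunit of the replicative helicase, averaged 519 ± 68.8 CPM in low-RNA cells, 597 ± 13.3 CPM in high-RNA cells and 162 CPM in rested cells, and Mki67, the proliferation marker gene, 309.8 ± 32.5, 262 ± 37.4 and 89.2 CPM. The histone gene Hist1h1a, which is expressed with DNA replication, had 121 to 215 CPM in low-RNA cells, 106 to 131 CPM in high-RNA cells and 6.53 CPM in rested cells. Among the members lower in low-RNA than high-RNA cells in 5 of 5 cultures, by less than 2-fold, were the mitotic kinase gene Plk1 (41.1 ± 30.8 against 76.4 ± 11.4 CPM) and the nucleotide synthesis gene Tyms (111 ± 23.6 against 158 ± 5.12 CPM).

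Summed ribosome biogenesis genes stood between the high-RNA and rested levels in low-RNA cells of each culture. Of 22 ribosome biogenesis genes, 9 were at least 2-fold higher in low-RNA than in rested cells, with a median log2 ratio of 0.85, against 11 and 0.99 in high-RNA cells. Over all measured genes the shares higher were 16.0% in low-RNA and 16.6% in high-RNA cells. Their summed level was 13344 ± 1917 CPM in low-RNA cells, 17588 ± 988 CPM in high-RNA cells and 6564 CPM in rested cells. The lowest low-RNA sum, at 80 pmol L6F, was 10905 CPM, against 16261 CPM in high-RNA cells of that culture, and was thus nearer to the rested sum. Low-RNA cells were lower than high-RNA cells in 5 of 5 cultures for 9 of the 22 members, against 8.35% of all measured genes, and 0 of the 22 differed by 2-fold. Ncl, the nucleolin gene (chromosome 1, 86344719 to 86359400, minus strand), had 3691, 3440.1, 3927, 3016 and 2597 CPM in low-RNA cells, 5069, 5009, 5040, 4511 and 4282 CPM in high-RNA cells and 1307 CPM in rested cells. The groups did not overlap for Ncl, and its lowest low-RNA value, at 80 pmol L6F, was nearly 2-fold the rested one.

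The same order held for chaperones and glycolysis. Chaperone genes had a median log2 ratio of -0.29 ± 0.11 between low-RNA and high-RNA cells, with 9 of 14 members lower in 5 of 5 cultures, and 0.89 between low-RNA and rested cells. Over all measured genes, 8.35% were lower in 5 of 5 cultures at any size. Hsp90ab1, an HSP90 gene, averaged 6044 ± 366 CPM in low-RNA, 7870.0 ± 335 CPM in high-RNA and 3711 CPM in rested cells. Glycolysis genes had a median of -0.23 ± 0.13 between low-RNA and high-RNA cells, with 6 of 13 lower in 5 of 5 cultures, and 6 of 13 were called higher than in rested cells. The shares of all measured genes were 8.35% and 16.0%. Gapdh, a glycolytic enzyme gene, had 1802, 1523, 1903, 2109 and 1998 CPM in low-RNA cells, 2545, 2661, 2765, 2588 and 2556 CPM in high-RNA cells and 923 CPM in rested cells, with no overlap between the groups. The actin and tubulin list had a median of 0.02 against high-RNA and 0.16 against rested cells. The one-carbon and nucleotide synthesis list had a median of -0.15 against high-RNA and 1.26 against rested cells, and the translation factor list -0.18 and 0.90. Cholesterol synthesis genes did not share this order: their median was 0.07 ± 0.16 between low-RNA and high-RNA cells. Of the 20 genes, 18 were at least 2-fold higher in low-RNA than in rested cells, against 16.0% of all measured genes. Hmgcs1, which makes the precursor of the pathway, averaged 218 ± 45.3 CPM in low-RNA, 194 ± 11.2 CPM in high-RNA and 41.4 CPM in rested cells.

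**Figure D4:**
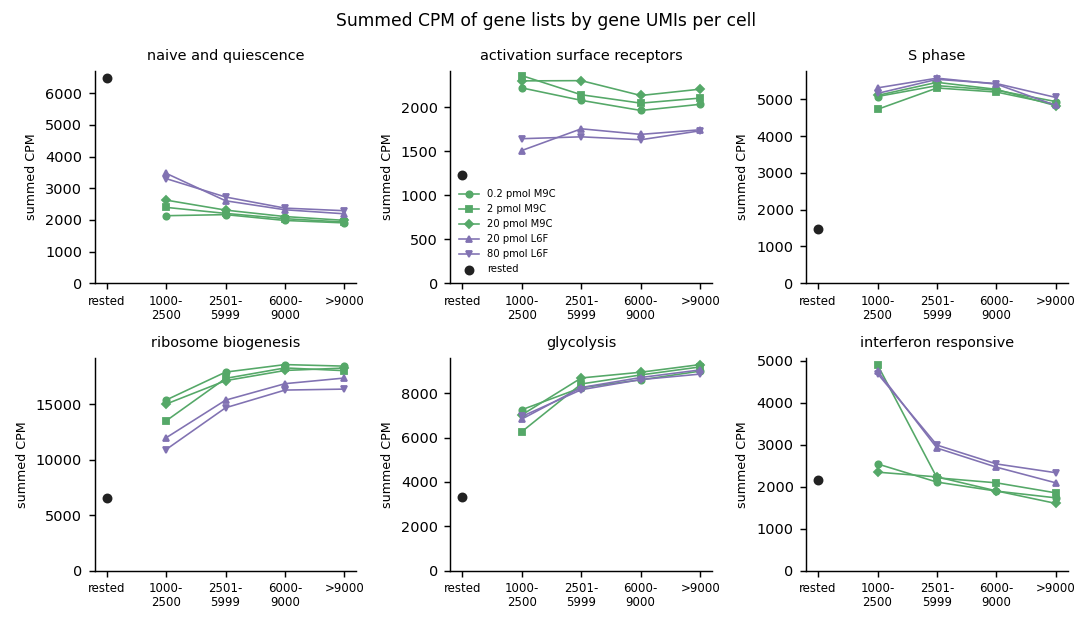
Summed CPM of 6 gene lists in rested cells (black) and in stimulated cells grouped by UMIs per cell; green lines are M9C and purple lines L6F cultures. S phase and activation receptor sums are nearly level from 1000-2500 to above 9000 UMIs, naive sums decline (2787 to 2062 CPM on average), and ribosome biogenesis and glycolysis sums climb.

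The genes with the largest excess in low-RNA over high-RNA cells were not led by naive genes. The highest were Tmem176a, a membrane protein gene (57.8 ± 41.2 CPM against 3.89 ± 1.11 CPM, with 40.3 CPM in rested cells), and S100a4, a calcium-binding protein gene of effector and memory T cells. S100a4 had 85.8, 84.6, 25.8, 186 and 281 CPM in low-RNA cells, 8.55, 14.7, 18.2, 12.4 and 13.1 CPM in high-RNA cells and 77.3 CPM in rested cells, and 38 of the 383 low-RNA cells held its 126 UMIs. Id2, a transcriptional regulator of effector T cells, averaged 58.3 ± 25.7 CPM in low-RNA, 15.1 ± 5.81 CPM in high-RNA and 64.2 CPM in rested cells. Ifngr1, a chain of the interferon gamma receptor, averaged 71.1 ± 23.7, 23.3 ± 5.03 and 274 CPM. The low-RNA mean lay above the rested level for Tmem176a and S100a4 and between the high-RNA and rested levels for Id2 and Ifngr1, as it did for the interferon-inducible gene Ifi203, which has near-identical relatives (75.7 ± 35.0, 26.7 ± 6.23 and 100.1 CPM).

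Several genes with a high ratio came from few cells. Serpina3g, a protease inhibitor gene, averaged 115.6 ± 110.3 CPM in low-RNA cells, 22.7 ± 4.91 CPM in high-RNA cells and 4.35 CPM in rested cells, with its 82 UMIs in 32 low-RNA cells. Cd74, the invariant chain gene of MHC class II, had 85.8, 752, 233, 237 and 50.3 CPM in low-RNA cells, 36.1, 49.5, 34.1, 27.2 and 24.5 CPM in high-RNA cells and 8.71 CPM in rested cells, and 3 low-RNA cells held 47.5% of its low-RNA UMIs. Ifitm1, an interferon-induced membrane protein gene, had 39 UMIs in 8 low-RNA cells, 64.1% of them in 3 cells. Gzmc, Cxcl9 and Gzma, which encode a granzyme, a chemokine and another granzyme, were among the genes with the highest ratios to rested cells, but 3 cells held 82.8%, 94.1% and 77.8% of their low-RNA UMIs. Gzmb, the main granzyme gene of effector CD8 T cells, was spread over 87 low-RNA cells, at 310.2 ± 182 CPM against 177 ± 48.3 CPM in high-RNA and 39.2 CPM in rested cells. Of the 9 measured cytotoxic genes, 5 were higher and 2 lower (Nkg7 and Ctsw) in low-RNA than in rested cells. The shares of all measured genes were 16.0% and 8.21%. Between low-RNA and high-RNA cells, 0 cytotoxic genes were called. Granzyme genes have near-identical relatives, so their counts may be shared among them.

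Interferon responsive genes stood out among the lists. Their median log2 ratio between low-RNA and high-RNA cells was 0.85 ± 0.34, against 0.08 for all genes; 2 of 11 measured members were called higher (Isg15 and Ifi27l2a), and 7 of 11 were higher in 5 of 5 cultures at any size, as were 9.63% of all measured genes. Summed over the list, low-RNA cells had 2538, 4897, 2342, 4748 and 4688 CPM, high-RNA cells 1891, 2088, 1896, 2461 and 2538 CPM and rested cells 2146 CPM. The 2 pmol M9C culture and both L6F cultures had the high low-RNA sums. The surface protein gene Ly6a averaged 1054 ± 454 CPM in low-RNA, 548.5 ± 64.5 CPM in high-RNA and 328 CPM in rested cells. Ly6c2, a surface protein gene of memory T cells that has near-identical relatives, had 61.3, 329, 43.1, 223 and 314 CPM in low-RNA cells, 62.1, 22.7, 21.05, 91.0 and 80.3 CPM in high-RNA cells and 175 CPM in rested cells. B cell marker sums in low-RNA cells were also highest at 2 pmol M9C (790 CPM). Of that sum, 733 CPM were of Ighm, the antibody heavy chain gene. In all low-RNA cells Ighm had 245 UMIs, of which 1 cell held 65. The part of these markers in the results was not tested.

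Several RNAs that reflect the nuclear or ribosomal fraction of a library also differed. Malat1, a nuclear noncoding RNA (chromosome 19, 5795690 to 5802672, minus strand), had 1704, 2538, 2144, 2644 and 2082 CPM in low-RNA cells, 1373, 1472, 1589, 1580.1 and 1575 CPM in high-RNA cells and 7892 CPM in rested cells, with no overlap between groups. The nuclear retained RNA list, with 3 of 6 members measured, had a median log2 ratio of 0.55 against high-RNA and -1.46 against rested cells. Gm42418, which overlaps a ribosomal RNA repeat, averaged 14601 ± 4435 CPM in low-RNA cells, 4421 ± 79.1 CPM in high-RNA cells and 21764 CPM in rested cells. Gm26917 and AY036118 were above the rested level instead. Gm26917 averaged 1110 ± 904, 322 ± 18.3 and 538 CPM, and 1 low-RNA cell held 139 of its 713 low-RNA UMIs. AY036118 averaged 442 ± 136, 177 ± 12.7 and 238 CPM. The mitochondrial leucyl-tRNA synthetase gene Lars2 and Rpgrip1, a gene known from photoreceptor cilia, were also higher in low-RNA cells in 5 of 5 cultures. Rpgrip1 (chromosome 14, 52110704 to 52163546, plus strand) had 417, 263, 276, 265 and 306 CPM in low-RNA cells, 59.8, 60.5, 58.9, 61.2 and 55.3 CPM in high-RNA cells and 62.0 CPM in rested cells. Lars2 averaged 215 ± 42.4, 69.9 ± 3.86 and 186 CPM. Ribosomal protein genes took 22.8 to 25.4% of UMIs in low-RNA cells, 25.7 to 26.4% in high-RNA cells and 33.6% in rested cells. The part of RNA quality in the differences between low-RNA and high-RNA cells was not tested.

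Only 2 genes met the rule for naming among those lower in low-RNA than high-RNA cells. Hax1, which encodes a mitochondrial survival protein, averaged 34.5 ± 15.9 CPM in low-RNA, 69.8 ± 5.24 CPM in high-RNA and 37.0 CPM in rested cells, and Rpp14, a ribonuclease P subunit gene, 31.0 ± 16.9, 62.5 ± 4.55 and 26.1 CPM. These rest on 28 and 27 UMIs in low-RNA cells.

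Klf3, Tsc22d3 and Dyrk4 were among the genes with the lowest ratios of low-RNA to rested cells and were spread over many rested cells. Klf3, a transcription factor of quiescent lymphocytes, had 12.3, 28.2, 0, 18.6 and 25.1 CPM in low-RNA cells, 13.97, 18.7, 24.6, 14.9 and 12.8 CPM in high-RNA cells and 244 CPM in rested cells. Tsc22d3, a glucocorticoid-induced regulator, had 3 UMIs in low-RNA cells (2.79 ± 6.25 CPM), against 5.09 ± 1.38 CPM in high-RNA and 58.8 CPM in rested cells, and the kinase gene Dyrk4 had 2 UMIs, 1.77 ± 2.43 against 0.49 ± 0.21 and 82.7 CPM. Both the low-RNA and the high-RNA cells were thus far below rested cells for these genes. Mpo, Elane and Prtn3, granule protein genes of myeloid precursors, also had low ratios, but their 62, 94 and 92 rested UMIs came from 2, 2 and 3 cells, and without the rested cells above 2500 UMIs or below 1000 UMIs the log2 ratio of Prtn3 was 0.27. On the high side, besides genes carried by few cells, were Bcl2a1b, a survival gene with near-identical relatives (85.4 ± 38.3 CPM in low-RNA, 93.4 ± 31.1 CPM in high-RNA and 3.26 CPM in rested cells), Cd160, a receptor gene of activated CD8 T cells (72.6 ± 20.2, 49.7 ± 7.71 and 4.35 CPM), and Lag3.

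The antigen receptor complex was at a similar level in both groups of stimulated cells. Its list median was 0.04 ± 0.13 between low-RNA and high-RNA cells, with 0 of 14 members called, and -0.51 between low-RNA and rested cells, with 4 members lower (Trac, Cd8b1, Lck and Thy1). Over all measured genes, 8.21% were lower than in rested cells. Trac, the constant region of the T cell receptor alpha chain, averaged 364 ± 86.3 CPM in low-RNA, 225 ± 45.3 CPM in high-RNA and 918 CPM in rested cells. Cd8a was at 416 ± 85.1, 422 ± 22.5 and 472 CPM. Genes of apoptosis and p53 had a median of 0.12 between low-RNA and high-RNA cells, with 0 of 10 called. The p53 inhibitor gene Mdm2 (60.3 ± 26.3 CPM in low-RNA and 36.4 ± 4.44 CPM in high-RNA cells) and the proapoptotic gene Bcl2l11 (50.1 ± 14.5 and 29.2 ± 5.30 CPM) were higher in low-RNA cells in 5 of 5 cultures, by less than 2-fold, with 27.2 and 51.1 CPM in rested cells.

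To see whether the low-RNA cells were uniform, each cell was thinned to 1000 UMIs and given an activation index, a log2 ratio with 1 added on both sides: UMIs of activation and inhibitory receptors, cytokines, cytotoxic and ribosome biogenesis genes, divided by naive UMIs. The median index was 1.87 to 2.68 in the low-RNA cells of the 5 cultures, 2.70 to 3.09 in high-RNA cells and 0.74 in the 464 rested cells deep enough. An index at or below 2.09, the 95th percentile of rested cells, was found in 9 of 40 (22.5%), 15 of 54 (27.8%), 20 of 60 (33.3%), 56 of 110 (50.9%) and 70 of 119 (58.8%) low-RNA cells, in the order of cultures used above. In high-RNA cells the shares were 11.6, 9.74, 10.4, 22.6 and 24.3%. Low-RNA cells averaged 38.7 ± 15.5% against 15.7 ± 7.13% in high-RNA cells (SD, n = 5 cultures), and the share was higher in low-RNA cells in each culture. Without thinning the shares were 28.5% and 1.72%. In the narrower low-RNA window of 1000 to 2000 UMIs the low-RNA share was 51.9 ± 21.3%. Most UMIs in the numerator of the index were of ribosome biogenesis genes, with 12.8 ± 2.00 per thinned low-RNA cell, 17.6 ± 1.06 per high-RNA cell and 6.56 per rested cell. The receptors together had 2.33 ± 0.574 UMIs in low-RNA, 2.22 ± 0.380 in high-RNA and 1.23 in rested cells, and cytotoxic genes 1.19 ± 0.256, 0.734 ± 0.0219 and 1.795. Low-RNA cells thus had fewer ribosome biogenesis UMIs and more naive and cytotoxic UMIs than high-RNA cells on average. Receptor UMIs depended on the culture. They were higher in low-RNA cells at 0.2 pmol M9C (2.55 against 2.29) and 2 pmol M9C (3.04 against 2.48). They were slightly lower at 20 pmol M9C (2.58 against 2.65), 20 pmol L6F (1.71 against 1.81) and 80 pmol L6F (1.76 against 1.84). Because 442 of the 464 rested cells lie in this range by its definition while the index of a thinned cell rests on few UMIs, the share is not a count of cells that did not respond.

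**Figure D5:**
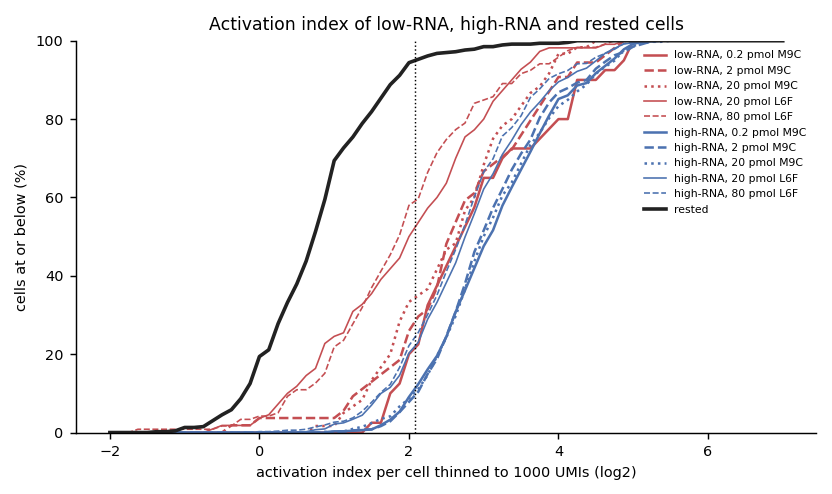
Percent of cells at or below each value of the activation index (log2, cells thinned to 1000 UMIs); red lines are low-RNA cells, blue lines high-RNA cells and the black line rested cells. The dotted line marks 2.09, the 95th percentile of rested cells; low-RNA cells of the L6F cultures (thin red) lie between rested cells and the other stimulated cells.

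Low-RNA cells inside the rested range differed from rested cells in genes that the index did not use. Of the 170 such cells 126 came from the L6F cultures, as did 103 of the 213 low-RNA cells above the range, and the sums that follow pool cells over the cultures. The cells inside the range had a summed S phase level of 5072 CPM (exact Poisson 95% interval 4827 to 5326), against 5164 CPM (4954 to 5380.4) in the low-RNA cells above the range, 5321 CPM (5295 to 5348) in high-RNA cells and 1701 CPM (1603 to 1804) in rested cells. Their cholesterol synthesis genes stood at 2462 CPM, against 2661, 2534 and 662 CPM in the same groups, and their interferon responsive genes at 5713 CPM, against 3015, 2205 and 2241 CPM. Within the cultures, interferon sums were 3331, 8546, 2555, 6081 and 6002 CPM inside the range and 2337, 3596, 2244, 3503 and 3068 CPM above it, in the order of cultures used above, so they were higher inside it in 5 of 5. S phase sums were 4470 to 6177 CPM inside and 4797 to 5520 CPM above. At or below the rested median index there were 36 low-RNA cells, 33 of them from the L6F cultures, with 3613 CPM of S phase genes (3146 to 4131), 7885 CPM of interferon responsive genes and a median of 2506 hashtag counts per cell. Malat1 was at 5606 CPM in those 36 cells, against 2860 CPM in all 170, 1854 CPM above the range, 1526 CPM in high-RNA and 7182 CPM in rested cells.

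Cell by cell, replication and mitosis genes separated low-RNA cells from rested ones. Of cells thinned to 1000 UMIs, 83.5 ± 6.39% of low-RNA cells, 92.4 ± 2.04% of high-RNA cells (SD, n = 5 cultures) and 10.3% of rested cells held 5 or more UMIs of S, G2 or M phase genes. The lowest low-RNA share was 72.2%, at 2 pmol M9C. Mean naive UMIs per thinned cell were 2.03, 2.31, 2.77, 3.55 and 3.40 in low-RNA cells, 1.96, 2.09, 2.08, 2.31 and 2.42 in high-RNA cells and 6.52 in rested cells. No naive UMI at all was found in 9.37 ± 6.32% of low-RNA, 12.4 ± 2.28% of high-RNA and 1.51% of rested cells.

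The low-RNA cells of the L6F and M9C cultures differed in several of the values above. Both L6F cultures had a larger share of low-RNA cells (4.44 and 5.39%, against 2.52 to 3.21% for M9C), a higher summed naive level in them (3473 and 3305 CPM, against 2134 to 2627 CPM) and a lower summed activation receptor level (1508 and 1642 CPM, against 2219 to 2359 CPM). High-RNA cells had the same order: 2321 and 2374 CPM of naive genes for L6F against 1983 to 2107 CPM for M9C, and 1691 and 1630.4 CPM of activation receptors against 1963 to 2133 CPM. S phase sums of low-RNA cells did not divide the cultures so clearly, at 5311 and 5161 CPM for L6F and 4728 to 5107 CPM for M9C. Each peptide dose was 1 culture, so the difference between the peptides was not tested.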

How the data were processed

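The authors deposited 1 filtered matrix of UMI counts per gene and hashtag counts per barcode, for which bcl2fastq, Cell Ranger 6.0.1 and the build GRCm38 are named, per the submitters' processing notes. The gene and the hashtag library come from 1 lane and share barcodes by design. The hashtag of each culture was taken from the deposited list of conditions. Barcodes without a clear hashtag (1768 of 13439) were left out. No doublet caller was run, so doublets within a culture remain. Gene positions are those of GENCODE vM21.

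Counts were summed per culture and window and given as CPM, and ratios are of mean CPM over the 5 cultures with equal weight. Counts of 0 entered ratios as 3 counts of the group's total. A gene counted as measured at 20 CPM in either group. Intervals of ratios are exact (Clopper-Pearson, 95%) and were computed on counts summed over the cultures. They are thus not intervals of the equal-weight ratio that gave the 2-fold size. Tools were python 3.11.15, numpy 2.4.6, scipy 1.17.1, pandas 2.3.3 and matplotlib 3.10.9. The calling was tried only on simulated counts with Poisson error, no spread between cells and planted changes larger than 2-fold. That trial does not show how the calling performs on genes carried by few cells. With 1 culture per condition, and cells chosen by their UMIs, no test was made. The text names the 10 called genes with the highest and the 10 with the lowest ratio at 50 CPM or more, leaving out mitochondrial, ribosomal, antigen receptor, unnamed and other cell type marker genes, besides members of the lists; Gm42418, Igkc, Lyz2 and other genes outside that rule were chosen after their values were seen. The members and lists were chosen with earlier results of these data known. Some list members are not reported here by name, though list counts include them. Alternatives for filters, windows, thresholds, scaling and left-out cultures are given in the closing section.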

Additional observations from a re-analysis of the deposited data

Results flagged for a closer look

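Of 171 values checked in the 5 cultures, 5 had 1 culture far from the other 4, which chance gives in about 1 of 20 groups. On the log2 scale between low-RNA and high-RNA cells, the naive list median was 0.086 at 0.2 pmol M9C against 0.45 to 0.59 elsewhere, and Tpi1, a glycolytic enzyme gene, was at 0.035 there against -0.57 to -0.40. Cd3e, a chain of the T cell receptor complex, was at -0.14 at 2 pmol M9C against 0.30 to 0.44. Between low-RNA and rested cells, the glycolysis list median was 0.74 at 20 pmol M9C against 1.02 to 1.12 in the others, and the nuclear retained RNA list, with 3 measured members, was at -2.21 at 0.2 pmol M9C against -1.42 to -1.15.

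In 11 further values the 3 M9C cultures lay on one side of 0 and both L6F cultures on the other in the log2 ratio of low-RNA to high-RNA cells; the difference between the peptides was not tested. Of 147 values checked for this, 11 had such a split, and signs at random would give it in 6.25% of values. The activation receptor list averaged 0.22 for M9C and -0.11 for L6F, Cd69 0.59 and -0.22, and Tfrc, the transferrin receptor gene, 0.35 and -0.13. The cytokine genes Tnf and Lta averaged 0.54 and 0.47 for M9C, against -0.55 and -1.26 for L6F. Slc3a2, an amino acid transporter subunit gene, averaged 0.27 for M9C and -0.59 for L6F. The G2 and M phase list averaged 0.079 and -0.20, and the cholesterol synthesis list 0.22 and -0.06. Klf13 had the opposite order, at -0.28 for M9C and 0.12 for L6F. Kcnq1ot1, a noncoding RNA gene, averaged 0.27 and -0.37, and Tent5a, with 5 low-RNA UMIs, 1.98 and -0.28.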

How the results depend on the processing

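No paired analysis was possible because the results come from no test; low-RNA and high-RNA cells were compared within each culture, so the ratios per culture are paired values already. The reference counts of genes were 91 higher and 11 lower (low-RNA against high-RNA) and 990 higher and 507 lower (against rested); the naive list medians were 0.47 and -1.14, the activation list medians 0.15 and 1.81, and the shares inside the rested range 38.7% and 15.7%. Of the recomputed values, 170 stayed within the spread of the cultures or 1.5 times a count and 36 moved further. Part of the 170 could not move, because the setting did not enter the value. CPM thresholds and scaling leave the index shares unchanged. The high-RNA window leaves the comparisons with rested cells unchanged, and the rested window those between low-RNA and high-RNA cells. Low-RNA windows of 1000 to 2000 UMIs gave 139 higher, 133 lower, 311 lower than rested, a naive median of -0.94 and an activation median of 2.27 against rested. In that window 51.9 ± 21.3% of low-RNA cells lay inside the rested range, which stayed within the spread of the cultures. A hashtag call at 50 counts and 90% gave 18 lower. Measuring at 10 CPM gave 145 and 28, at 50 CPM 30 and 2 (262 lower than rested) and without a filter 153 and 82. Without mitochondrial and ribosomal protein genes the naive median against rested was -1.34. Rescaling to the median gene gave 71 higher and 22 lower, 619 and 793 against rested, and a naive median of -1.39. Leaving out cells with 2 or more UMIs of other cell types' markers, which left 287 low-RNA and 1223 high-RNA cells, gave 28 lower. Without thinning, 28.5% of low-RNA and 1.72% of high-RNA cells lay inside the rested range. As UMIs per cell, where the smaller totals enter by construction, counts were 0 and 5415, then 2866 and 143, with naive medians of -1.44 and -0.44 and activation medians of -1.77 and 2.51, so both medians against high-RNA cells changed sign.

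Leaving out each culture gave 123 to 145 genes higher and 20 to 37 lower than high-RNA cells, since fewer cultures must then share a direction. Against rested cells the counts were 919 to 1060 higher and 465 to 515 lower. The naive medians were 0.39 to 0.54 and -1.22 to -1.02, the activation medians 0.09 to 0.23 and 1.56 to 1.98, and the shares 33.6 to 42.7% and 13.6 to 17.2%.

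Of 102 calls on named genes over both comparisons, 12 changed direction under some alternative: Egr1 (-0.023 in the narrower window) and Prtn3 (0.27 against rested cells of 1000 to 2500 UMIs), whose causes were not tested, and as UMIs per cell Ifi203 (-0.40), Cd44 (-0.89), Isg15 (-0.16), Bhlhe40 (-0.68), Klf2 (-0.50), Lars2 (-0.29), Ifngr1 (-0.29), Ifi27l2a (-0.84), Neat1 (-0.48) and Pdcd4 (-0.87). Alternatives chosen after seeing the data, a marker filter that did not count Ighm, Trdc and Eomes (82 higher, 15 lower) and a counting interval added to the rule (91 and 10), moved no count by 1.5 times. A further one, the counting interval in place of the same direction in 5 cultures, gave 174 higher and 14 lower. The count of lower genes against high-RNA cells ran from 2 at 50 CPM to 133 in the narrower window, leaving aside UMIs per cell.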

Other observations

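Cells between the windows and above them completed the series of depths. In the 3694 stimulated cells between the windows, 24.2 ± 8.85% (SD, n = 5 cultures) had an activation index inside the rested range, and 92.3 ± 1.299% held 5 or more UMIs of cell cycle genes when thinned. Summed interferon responsive genes were 2489 ± 425 CPM there and 1919 ± 292 CPM in the 1817 cells above 9000 UMIs, and summed G2 and M phase genes 3523 ± 230 and 4223 ± 330.0 CPM. Of 254 tagged stimulated barcodes with fewer than 1000 UMIs, 32 passed the filters, and none of the 254 was in either window. Rested cells had a median of 1056 UMIs, so the low-RNA window does not cover all stimulated barcodes near the depth of rested cells.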
